A study of Mus musculus with 9 samples.

Results

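Sterol synthesis and its feedback control were followed across 9 mouse kidney RNA-seq libraries through 8 genes: Hmgcs1, Idi1, Fdft1, Sqle, Lss, Cyp51, Dhcr7 and Insig1. They were chosen by symbol as typical targets of the transcription factor SREBP2, and they are 8 of the 32593 genes in the deposited table. All 8 were among the 12507 genes that passed the filter on low values and were tested. None of the 8 is a receptor for sterol uptake, so the uptake genes are given below from a separate list.

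The study treated mice with angiotensin II (AngII), a peptide hormone that raises blood pressure, and measured whole kidney RNA in 3 groups of 3 libraries. CDH16KO-AngII kidneys carried CDH16 Cre and Tmemfl/fl alleles, GRPR-AngII kidneys carried CDH16 Cre and GRPRfl/fl alleles, and AngII kidneys carried Tmemfl/fl alleles with no Cre listed. All 9 libraries came from AngII-treated kidneys, so no untreated level enters any comparison, and GRPR-AngII differs from AngII in both the floxed gene and the Cre. A Cre under the Cdh16 promoter acts mainly in tubule epithelium, so other kidney cells are expected to keep the floxed gene. The labels used here give no age, sex or pooling and do not say that libraries of a group came from separate animals, so p-values reflect the spread among these libraries only.

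Cells make cholesterol from acetyl-CoA through mevalonate, isoprenoid diphosphates, squalene and lanosterol. When sterol in the endoplasmic reticulum is low, the escort protein SCAP carries SREBP2 to the Golgi apparatus, where it is cut, and the freed part turns on the synthesis enzymes together. When sterol is plentiful, INSIG proteins hold SCAP in the endoplasmic reticulum and these genes are turned down. Kidney tubule cells both make cholesterol and take it up from lipoproteins.

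Libraries held 40731748 to 60449117 counts, of which the 8 genes took 24625 to 45962, or 0.0541% to 0.0839%. Sting1, known earlier as Tmem173 and taken from the study's title as the floxed Tmem gene, stood at 0.65, 0.70 and 0.58 FPKM in CDH16KO-AngII libraries 1 to 3, at 0.86, 0.91 and 0.71 FPKM in GRPR-AngII libraries and at 1.37, 0.55 and 1.70 FPKM in AngII libraries. The library labelled AngII 2 was therefore below every CDH16KO-AngII library in the floxed gene, against its label, and results are also given without it. The gap was small, at 0.55 FPKM against 0.58 to 0.70 FPKM, and levels this low do not settle the genotype of a library. Too few libraries reached 1 FPKM for Sting1 to be tested, and Grpr was not analysed here. Kidney markers were abundant: the 12 proximal tubule markers summed to 10440 to 14240 CPM in the CDH16KO-AngII group, 13690 to 15820 CPM in the GRPR-AngII group and 13870 to 15560 CPM in the AngII group. Adrenal markers, which would mark another sterol-using tissue, were low but none was at 0 in all libraries: 6 of the 8 listed were measured, and together they summed to 6.11 to 7.64 CPM in the CDH16KO-AngII group, 4.90 to 6.60 CPM in the GRPR-AngII group and 4.72 to 7.96 CPM in the AngII group. Cyp11a1 stayed at or below 0.05 FPKM and Cyp21a1 at or below 0.02 FPKM in every library, while Star ran from 0.33 to 0.78 FPKM and Akr1b7, the 1 marker that passed the filter, from 1.03 to 3 FPKM.

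Promoters are shown for the 5 genes that have a single start in the RefSeq table (build GRCm38.p6), so that Hmgcs1, the gene with the largest of the fold changes below, can be read beside 4 genes of the same pathway. Each run covers the bases just before and just after the gene start, on the gene's own strand. Capitals mark the sterol regulatory element letters TCACNCCAC and the CCAAT box, the letters bound by NF-Y, each searched on both strands, so that a CCAAT box on the other strand reads ATTGG. The regions are chr13:119690101-119690400 (+) for Hmgcs1, chr13:8885356-8885655 (+) for Idi1, chr10:76531355-76531654 (+) for Lss, chr5:4104648-4104947 (−) for Cyp51 and chr5:28071162-28071461 (+) for Insig1.
Hmgcs1: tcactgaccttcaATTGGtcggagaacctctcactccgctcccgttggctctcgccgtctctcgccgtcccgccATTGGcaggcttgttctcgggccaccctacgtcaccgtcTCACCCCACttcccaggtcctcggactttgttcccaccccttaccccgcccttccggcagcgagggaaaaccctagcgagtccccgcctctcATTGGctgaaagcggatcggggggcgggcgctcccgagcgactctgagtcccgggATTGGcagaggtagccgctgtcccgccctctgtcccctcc
Idi1: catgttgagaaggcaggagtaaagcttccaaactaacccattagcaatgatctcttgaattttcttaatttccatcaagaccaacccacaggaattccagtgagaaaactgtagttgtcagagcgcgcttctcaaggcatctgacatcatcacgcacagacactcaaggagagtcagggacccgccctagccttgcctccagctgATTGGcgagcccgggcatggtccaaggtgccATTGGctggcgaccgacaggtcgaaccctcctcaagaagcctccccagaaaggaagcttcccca
Lss: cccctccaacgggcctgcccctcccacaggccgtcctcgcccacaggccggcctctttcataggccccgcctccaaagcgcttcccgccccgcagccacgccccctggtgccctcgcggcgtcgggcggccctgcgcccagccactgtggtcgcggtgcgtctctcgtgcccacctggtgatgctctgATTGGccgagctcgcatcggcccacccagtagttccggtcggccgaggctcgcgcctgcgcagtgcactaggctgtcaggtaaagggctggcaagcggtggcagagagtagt
Cyp51: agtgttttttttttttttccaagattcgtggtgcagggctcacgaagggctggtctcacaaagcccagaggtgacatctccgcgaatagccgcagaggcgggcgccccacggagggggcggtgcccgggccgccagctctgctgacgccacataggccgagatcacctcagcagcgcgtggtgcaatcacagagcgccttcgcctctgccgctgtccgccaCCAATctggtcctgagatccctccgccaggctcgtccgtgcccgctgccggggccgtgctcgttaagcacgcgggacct
Insig1: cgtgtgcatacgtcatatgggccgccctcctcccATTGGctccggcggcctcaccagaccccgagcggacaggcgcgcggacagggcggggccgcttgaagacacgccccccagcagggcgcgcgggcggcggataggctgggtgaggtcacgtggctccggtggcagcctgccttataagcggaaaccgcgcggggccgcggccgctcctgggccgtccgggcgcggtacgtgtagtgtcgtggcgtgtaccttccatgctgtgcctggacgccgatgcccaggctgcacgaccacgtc

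Hmgcs1 was the one member with a TCACNCCAC match in these windows, at base −137 from its start, and it also held 4 CCAAT boxes on the other strand. Those letters stand in 1.24% of the 32851 mouse promoters of the same length, and CCAAT stands in 37.4%. Idi1 held 2 CCAAT boxes, and Lss, Cyp51 and Insig1 held 1 each. Insig1 held in addition a CACGTG E-box at base −101, a motif found in 7.15% of promoters. GC boxes (GGGCGG) occurred in all 5 windows, against 35.7% of promoters. Dhcr7 has 3 starts in the table, of which the one farthest along the gene held 2 CCAAT boxes. Sqle and Fdft1 have no entry in that table, so their promoters were not searched for any motif. A match describes letters and is not a measured binding site, and a window without one says nothing about the factor.

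Per length of transcript, Hmgcs1 was by far the most abundant of the 8, with a mean of 60.3 FPKM over the 9 libraries, followed by Cyp51 with 23.9 FPKM. Idi1 averaged 8.15 FPKM, Insig1 7.04, Sqle 5.87 and Fdft1 5.42 FPKM. Dhcr7 averaged 2.70 FPKM and Lss 1.70 FPKM. Hmgcs1 and Cyp51 each stood above the next gene in 9 of 9 libraries, with ranges that did not meet. The 4 genes in the middle could not be ordered by their ranges: Idi1 exceeded Insig1 in 6 of 9 libraries, Insig1 exceeded Sqle in 8 of 9 and Sqle exceeded Fdft1 in 7 of 9. Fdft1 exceeded Dhcr7 in 9 of 9 libraries. Dhcr7 exceeded Lss in 9 of 9 libraries, although their ranges over libraries overlapped.

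**Figure D1:**
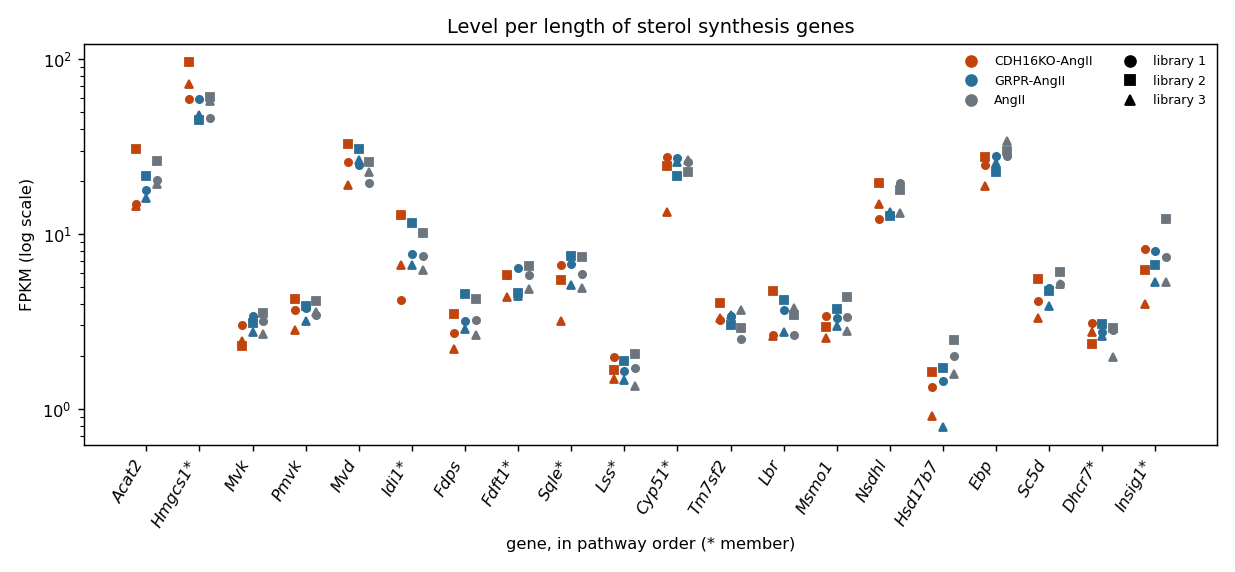
Level per length of sterol synthesis genes in pathway order, in FPKM on a log scale, with 1 point per library (colour gives the group, shape the library number). Hmgcs1 lies highest, with a mean of 60.3 FPKM, above Cyp51 with a mean of 23.9 FPKM, and Lss lies lower with a mean of 1.70 FPKM.

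Near the start of the mevalonate pathway, Hmgcs1 had the largest log2 fold change of the 8 genes in CDH16KO-AngII against AngII. The same held in GRPR-AngII against CDH16KO-AngII, and both fell short of the threshold. Hmgcs1, the cytosolic synthase that makes HMG-CoA, had 329.5, 518 and 420.2 CPM (TMM-scaled counts per 1e+06 counts) in CDH16KO-AngII libraries 1, 2 and 3, 333, 239 and 297 CPM in GRPR-AngII libraries and 262, 329.7 and 304 CPM in AngII libraries. CDH16KO-AngII libraries 2 and 3 were the highest of all 9, but library 1 fell just under the library labelled AngII 2 and under GRPR-AngII 1, so the groups overlapped. The means were 423 ± 94.3 CPM in the CDH16KO-AngII group, 289.7 ± 47.3 CPM in the GRPR-AngII group and 299 ± 34.1 CPM in the AngII group (SD, n = 3 each). The log2 fold change of CDH16KO-AngII against AngII was 0.50 (SE 0.20, 95% interval 0.067 to 0.93), a ratio of 1.41. Its p in edgeR's quasi-likelihood test was 0.0276 and the p adjusted over all tested genes was 0.539, so it missed the threshold of 0.05. Without the library labelled AngII 2 the log2 fold change was 0.58, with an adjusted p of 0.842 in the same test.

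For GRPR-AngII against CDH16KO-AngII, the 2 groups that both carry Cre, Hmgcs1 had a log2 fold change of −0.54 (SE 0.20, 95% interval −0.98 to −0.11). The p in edgeR was 0.0187 and the adjusted p 0.592. Against AngII, GRPR-AngII gave −0.044 (95% interval −0.48 to 0.39, adjusted p = 0.968 in edgeR). Over all settings run, the log2 fold change of Hmgcs1 lay between 0.33 and 0.65 for CDH16KO-AngII against AngII. It lay between −0.69 and −0.37 for GRPR-AngII against CDH16KO-AngII, and no setting brought either past the threshold. In both comparisons the value nearest 0 came without CDH16KO-AngII library 2.

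Idi1, the isomerase that sets the balance of the isoprenoid diphosphates, varied most between libraries. It had 17.9, 53.0 and 29.7 CPM in CDH16KO-AngII libraries 1 to 3, 33.0, 47.1 and 31.6 CPM in GRPR-AngII libraries and 32.4, 41.7 and 25.2 CPM in AngII libraries. The lowest and the highest of the 9 values were both CDH16KO-AngII libraries, and library 2 was the highest in each group. The log2 fold change was 0.017 for CDH16KO-AngII against AngII (95% interval −0.74 to 0.78, adjusted p = 0.989 in edgeR) and 0.17 for GRPR-AngII against AngII (95% interval −0.59 to 0.93, adjusted p = 0.917 in edgeR). GRPR-AngII against CDH16KO-AngII gave 0.15, with an adjusted p of 0.998 in edgeR. These intervals admit changes in either direction.

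**Figure D2:**
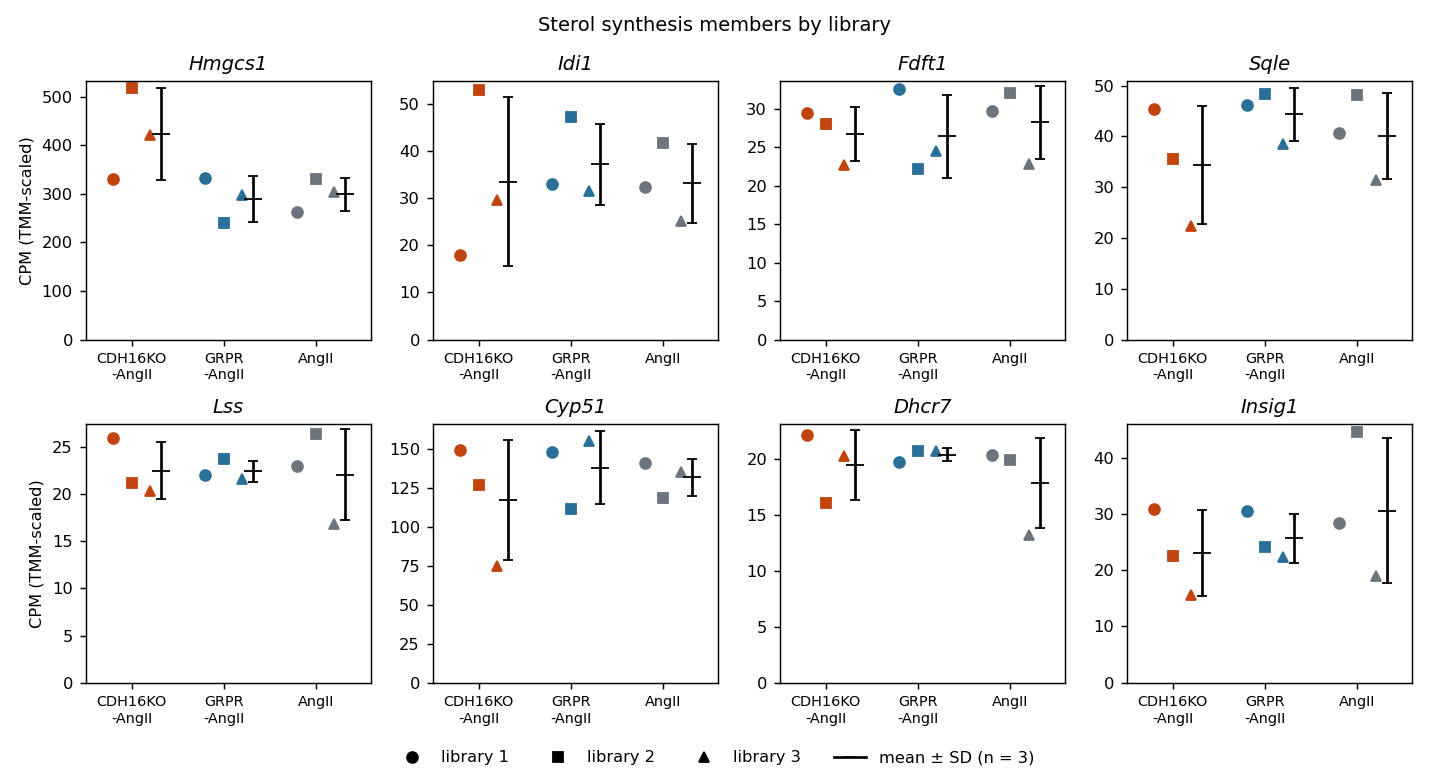
TMM-scaled CPM of the 8 genes in each library, by group, with the mean ± SD of 3 libraries beside the points and axes that start at 0. Hmgcs1 reaches 518 and 420.2 CPM in CDH16KO-AngII libraries 2 and 3, and Sqle, Lss and Insig1 are lowest in library 3 of every group.

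The 3 enzymes that build the sterol skeleton showed no group difference past the threshold. Fdft1, squalene synthase, had 29.4, 28.1 and 22.8 CPM in CDH16KO-AngII libraries, 32.6, 22.1 and 24.6 CPM in GRPR-AngII libraries and 29.8, 32.1 and 22.9 CPM in AngII libraries. Sqle, the epoxidase that oxidises squalene and a rate-limiting step of the pathway, had 45.3, 35.5 and 22.3 CPM in the CDH16KO-AngII group, 46.3, 48.3 and 38.4 CPM in the GRPR-AngII group and 40.7, 48.2 and 31.4 CPM in AngII libraries. Lss, which closes the epoxide into lanosterol, had 26.0, 21.2 and 20.3 CPM in the CDH16KO-AngII group, 22.0, 23.7 and 21.6 CPM in the GRPR-AngII group and 23.0, 26.4 and 16.9 CPM in AngII libraries. All 3 groups overlapped for each of the 3 genes. For Sqle and Lss the library numbered 3 was the lowest of its group every time.

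Sqle had the larger differences of these 3 enzymes. Its log2 fold change was −0.22 for CDH16KO-AngII against AngII (95% interval −0.76 to 0.32, adjusted p = 0.788 in edgeR) and 0.15 for GRPR-AngII against AngII (adjusted p = 0.897). GRPR-AngII against CDH16KO-AngII gave 0.37 (95% interval −0.17 to 0.91, adjusted p = 0.932 in edgeR). Without CDH16KO-AngII library 3, the lowest library for Sqle, the log2 fold change was 0.011 for CDH16KO-AngII against AngII and 0.13 for GRPR-AngII against CDH16KO-AngII. Fdft1 gave −0.078, −0.097 and −0.019 in the same order of comparisons, and Lss gave 0.027, 0.023 and −0.0040. For Lss the 95% interval ran from −0.37 to 0.42 for CDH16KO-AngII against AngII, which admits changes within that range in either direction.

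Cyp51, the demethylase that acts on lanosterol, differed little among 8 of the 9 libraries. It had 149, 127 and 74.8 CPM in CDH16KO-AngII libraries, 148, 111 and 155 CPM in GRPR-AngII libraries and 141, 119 and 135 CPM in AngII libraries. CDH16KO-AngII library 3 was the lowest of the 9, and the other 8 lay between 111 and 155 CPM. The log2 fold change was −0.17 for CDH16KO-AngII against AngII (95% interval −0.69 to 0.35, adjusted p = 0.833 in edgeR), and it was 0.070 without CDH16KO-AngII library 3. The same library had the largest share of mitochondria-coded counts, 26.4% against 16.1% to 24.6% in the others. It also had the smallest summed proximal tubule markers, 10440 CPM. GRPR-AngII library 3, next in mitochondrial share at 24.6%, had the highest Cyp51 of the 9, at 155 CPM. CDH16KO-AngII library 1, next lowest in tubule markers at 10900 CPM, had 149 CPM of Cyp51. The part of either trait in the low Cyp51 value was not tested. In bulk kidney, fewer cells of a type and less RNA per cell cannot be told apart.

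Dhcr7, the reductase that makes cholesterol from its last precursor in one branch of the pathway, had 22.1, 16 and 20.3 CPM in CDH16KO-AngII libraries, 19.6, 20.7 and 20.7 CPM in GRPR-AngII libraries and 20.3, 19.9 and 13.2 CPM in AngII libraries. The 3 GRPR-AngII libraries were close together and lay inside the CDH16KO-AngII range, while AngII library 3 was the lowest of all. Its log2 fold changes were 0.13 for CDH16KO-AngII against AngII (adjusted p = 0.845 in edgeR), 0.19 for GRPR-AngII against AngII (adjusted p = 0.822) and 0.064 for GRPR-AngII against CDH16KO-AngII (adjusted p = 0.998).

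Insig1, the regulator that retains SCAP and is itself an SREBP target, had 30.9, 22.6 and 15.6 CPM in CDH16KO-AngII libraries, 30.6, 24.0 and 22.4 CPM in GRPR-AngII libraries and 28.3, 44.5 and 18.9 CPM in AngII libraries. The library labelled AngII 2 was the highest of the 9 and CDH16KO-AngII 3 the lowest, and the other 7 values of the groups were interleaved. The log2 fold change was −0.41 for CDH16KO-AngII against AngII (SE 0.31, 95% interval −1.10 to 0.29, adjusted p = 0.705 in edgeR). It was −0.036 without the library labelled AngII 2 and −0.19 without CDH16KO-AngII library 3, so its size rested on single libraries. GRPR-AngII against AngII gave −0.25 with the library labelled AngII 2 and 0.12 without it, with adjusted p-values of 0.861 and 0.989 in edgeR. Insig1 thus differed in sign from Hmgcs1 for CDH16KO-AngII against AngII, but neither passed the threshold.

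Across the 8 genes, edgeR called 0 of 8 in CDH16KO-AngII against AngII, where 0.168% of all tested genes were called, 13 of them higher and 8 lower. It called 0 of 8 in GRPR-AngII against AngII, where 0% of all tested genes were called; there 843 genes had an unadjusted p under 0.05 and DESeq2 called 54. In GRPR-AngII against CDH16KO-AngII it called 0 of 8, beside 0.144% of all tested genes. DESeq2 and limma also called none of the 8 in any comparison. At an unadjusted p under 0.05 in edgeR, Hmgcs1 was the 1 gene of 8 in CDH16KO-AngII against AngII and in GRPR-AngII against CDH16KO-AngII. Of all 12507 tested genes, 1057 reached it in CDH16KO-AngII against AngII and 780 in GRPR-AngII against CDH16KO-AngII. In GRPR-AngII against AngII 0 of 8 reached it.

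No member separated the groups by range. The 3 libraries of 1 group lay wholly above or below the other 3 for 0 of 8 genes in each comparison, beside 12.2% of all tested genes in CDH16KO-AngII against AngII, 14.0% in GRPR-AngII against AngII and 9.96% in GRPR-AngII against CDH16KO-AngII. The median log2 fold change of the 8 genes was −0.031 for CDH16KO-AngII against AngII, with 4 positive and 4 negative, and 0.012 over all tested genes. For GRPR-AngII against AngII the median was 0.045, beside −0.0063 over all genes, and for GRPR-AngII against CDH16KO-AngII it was 0.11, beside −0.014. The comparisons with AngII share the AngII libraries. Without the library labelled AngII 2 the members' median was 0.099 for CDH16KO-AngII against AngII and 0.15 for GRPR-AngII against AngII. Without CDH16KO-AngII library 3 it was 0.083 for CDH16KO-AngII against AngII and −0.031 for GRPR-AngII against CDH16KO-AngII, so the sign turned in both. Without the libraries numbered 3 it was −0.081, −0.018 and 0.0089 for CDH16KO-AngII against AngII, GRPR-AngII against AngII and GRPR-AngII against CDH16KO-AngII.

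**Figure D3:**
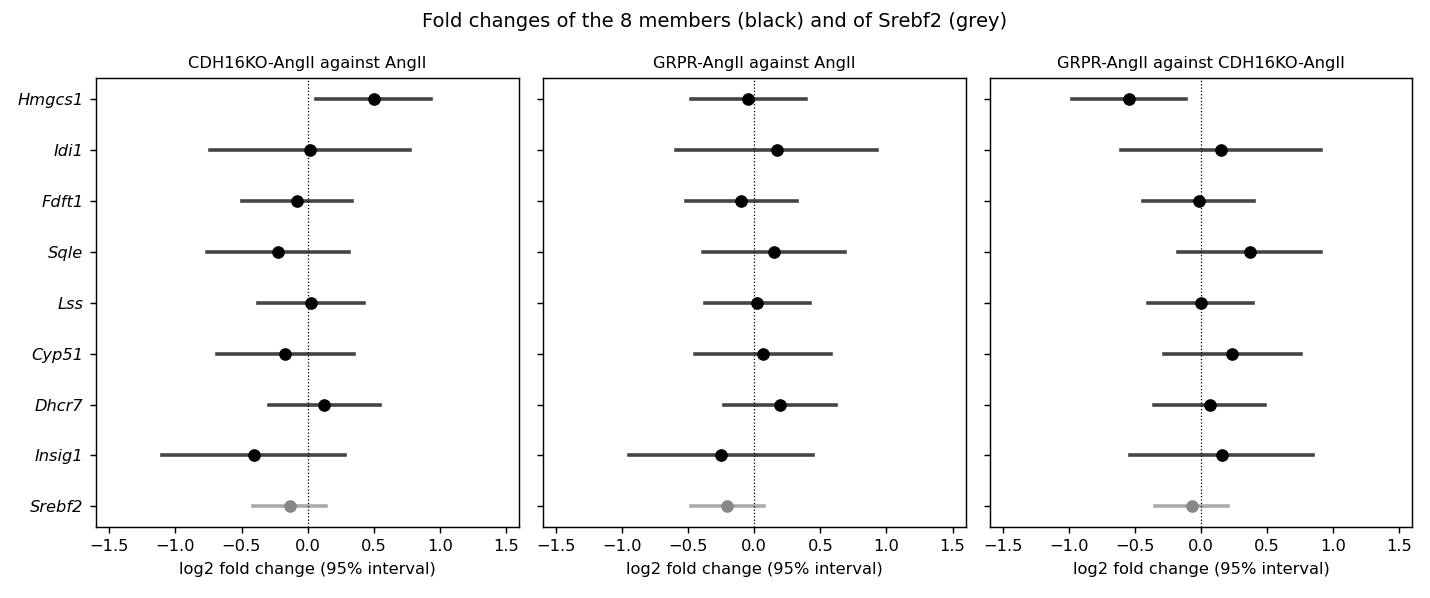
Log2 fold changes with 95% intervals of the 8 genes (black) and of Srebf2 (grey) in the 3 comparisons, from edgeR. Among the 8, the interval of Hmgcs1 leaves out 0 in CDH16KO-AngII against AngII (0.067 to 0.93) and in GRPR-AngII against CDH16KO-AngII (−0.98 to −0.11), and its adjusted p-values are 0.539 and 0.592.

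By the ratio of the highest to the lowest library, the spread was wider than for a typical gene in 5 of the 8. The highest over the lowest library was 2.96 for Idi1, 2.85 for Insig1, 2.17 for Sqle and for Hmgcs1, and 2.07 for Cyp51, against a median ratio of 1.71 over all tested genes. Fdft1 (1.47), Lss (1.57) and Dhcr7 (1.68) lay below that median. By the SD within groups on the log2 scale, Fdft1 (0.241) and Dhcr7 (0.234) lay above the median of all tested genes (0.220). Lss (0.214) lay below it. Hmgcs1 was the exception in where its spread lay: 57.3% of its variance on the log2 scale was between groups, against 1.27% for Lss and 25.3% for Sqle. The median over all tested genes was 25.4%.

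Several members went up and down together over libraries. Pearson's r of log2(CPM + 1) over the 9 libraries was 0.84 for Sqle with Insig1, 0.82 for Fdft1 with Insig1, 0.79 for Lss with Dhcr7 and 0.78 for Lss with Insig1. With group means removed, Sqle and Insig1 had r = 0.90 and Lss and Insig1 r = 0.88. Hmgcs1 followed them less, with r = −0.50 with Sqle and −0.24 with Insig1, and −0.24 and −0.015 with group means removed. Idi1 had r between −0.23 and 0.17 with every other member, and with group means removed between −0.35 with Cyp51 and 0.51 with Hmgcs1. Cyp51 and Dhcr7 were also loosely tied to some members. Over the 9 libraries Cyp51 had r = −0.062 with Dhcr7 and 0.13 with Lss, but 0.63 with Sqle. Dhcr7 had r = 0.26 with Fdft1, and by Spearman's rank correlation 0.58 with Lss. These correlations describe 9 libraries that share their scaling and their groups, and carry no test.

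The members' joint level was lowest in library 3 of the CDH16KO-AngII and of the AngII group. The mean z-score of the 8 genes was 0.36, 0.20 and −0.83 in CDH16KO-AngII libraries 1 to 3, 0.44, −0.045 and −0.044 in GRPR-AngII libraries and 0.17, 0.74 and −0.99 in AngII libraries. Library 3 held the lowest value for 5 of 8 genes in CDH16KO-AngII, 4 of 8 in GRPR-AngII and 6 of 8 in AngII. Sqle, Lss and Insig1 were lowest in library 3 of every group, which is 37.5% of the members; the same held for 6 of 14 other sterol enzymes (42.9%) and 10.5% of all tested genes. The labels do not say what, if anything, the libraries numbered 3 share. Dbp, a clock-controlled gene whose level follows the time of day, was at 1.72, 6.37 and 8.43 FPKM in CDH16KO-AngII, 2.35, 1.67 and 4.50 FPKM in GRPR-AngII and 3.80, 3.09 and 13.4 FPKM in AngII libraries. It was highest in library 3 of every group. So was the sum of 9 stroma and smooth muscle markers, at 223, 154 and 266 CPM in CDH16KO-AngII libraries 1 to 3, 171, 227 and 268 CPM in GRPR-AngII libraries and 184, 133 and 219 CPM in AngII libraries. All 9 of these markers ran against the members' mean z-score over the 9 libraries, from r = −0.80 for Col1a2, a collagen chain, to −0.24 for Acta2, smooth muscle actin, and from −0.95 to −0.27 for the same genes with group means removed. Dbp had r = −0.75 with the members' mean z-score over the 9 libraries. The 13 tested of 15 listed clock genes ran from −0.79 for Per3 to 0.75 for Npas2. Among them Hlf stood at 0.31 and Per1 at 0.016. The share of all tested genes highest in library 3 of every group was not counted. The part of Dbp and of the stroma markers in the sterol genes' pattern was not tested.

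**Figure D4:**
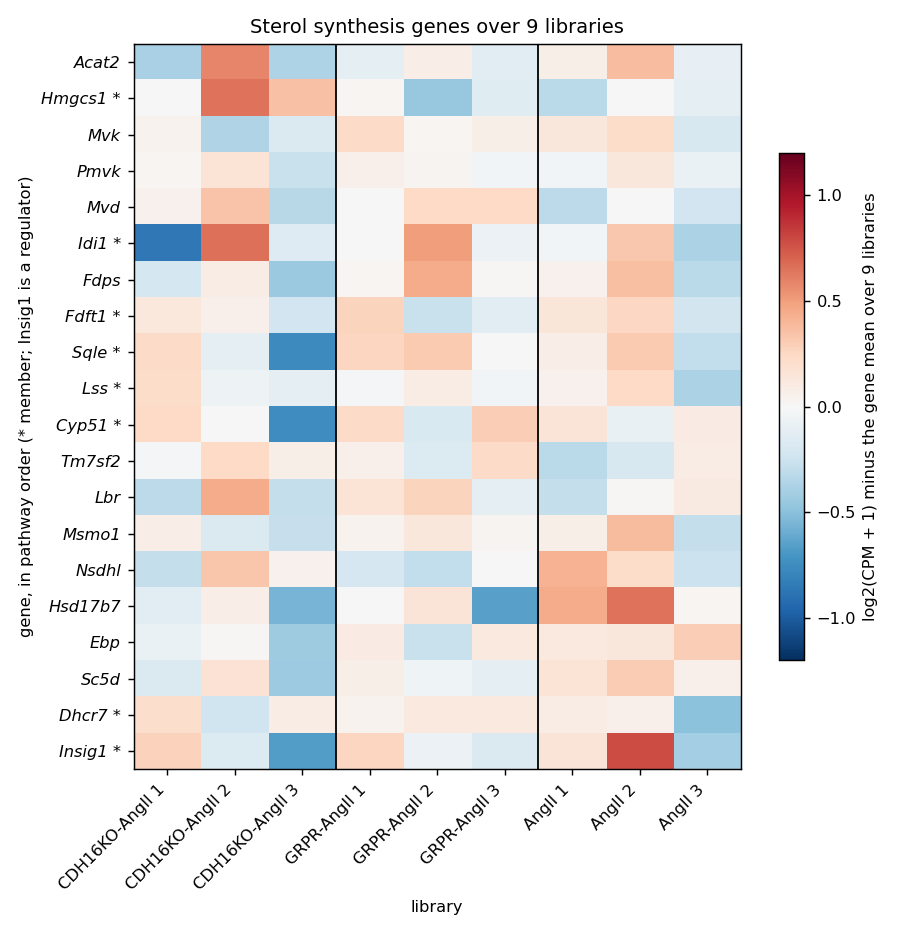
Log2(CPM + 1) of sterol synthesis genes, each minus its mean over the 9 libraries, in pathway order down the page and by library across it (asterisks mark the 8 members). Library 3 of CDH16KO-AngII and of AngII is low for most genes, with mean z-scores of the members of −0.83 and −0.99, while Hmgcs1 is high in CDH16KO-AngII libraries 2 and 3.

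The 14 other enzymes of the pathway gave no call in any comparison. For CDH16KO-AngII against AngII, 11 of 14 stood below 0 on the log2 scale, at a median of −0.22 beside 0.012 over all tested genes. The median was −0.060 without the library labelled AngII 2 and −0.12 without CDH16KO-AngII library 3. Of the 12 proximal tubule markers, 10 were also below 0 in that comparison, at a median of −0.19. Of the 12, 4 had an unadjusted p under 0.05 in edgeR, beside 1057 of all 12507 tested genes, and none was called. The part of these markers in the enzymes' values was not tested. Hsd17b7, a ketone reductase of the pathway, gave −0.63, and Ebp, the sterol isomerase, gave −0.34, with adjusted p-values of 0.59 and 0.608 in edgeR. Ebp was the 1 of 14 that was lower in all 3 CDH16KO-AngII libraries than in any AngII library. Ranges did not meet for 12.2% of all tested genes in this comparison.

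For GRPR-AngII against AngII, 7 were positive and 7 negative, with a median of 0.0026. Mvd, the decarboxylase at the end of the mevalonate segment, was higher in all 3 GRPR-AngII libraries than in any AngII library, at 63.6 ± 5.78 CPM against 49.9 ± 5.93 CPM (SD, n = 3 each; log2 fold change 0.35, adjusted p = 0.736 in edgeR). Mvd was the 1 of 14 whose ranges did not meet in this comparison, beside 14.0% of all tested genes. Hsd17b7 gave −0.57 and Nsdhl, the decarboxylating dehydrogenase, −0.32 there, with adjusted p-values of 0.732 and 0.752 in edgeR. For GRPR-AngII against CDH16KO-AngII, 11 of 14 were positive with a median of 0.12, and the median was −0.018 without CDH16KO-AngII library 3. There 9 of the 12 proximal tubule markers were positive, with a median of 0.23. Fdps, which makes farnesyl diphosphate, gave 0.37 and Mvk, mevalonate kinase, 0.29, with adjusted p-values of 0.917 and 0.932 in edgeR.

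Uptake and transport genes were also without a call in edgeR. Stard4, a carrier that moves cholesterol between membranes inside the cell, had 26.4, 32.5 and 18.2 CPM in the CDH16KO-AngII group, 40.3, 45.8 and 40.9 CPM in the GRPR-AngII group and 42.1, 48.8 and 39.7 CPM in AngII libraries. Every CDH16KO-AngII library lay below every library of the other groups. Ranges also did not meet for 12.2% of all tested genes in CDH16KO-AngII against AngII, and for 9.96% in GRPR-AngII against CDH16KO-AngII. The log2 fold change was −0.76 for CDH16KO-AngII against AngII (SE 0.19, 95% interval −1.19 to −0.34), and 0.72 for GRPR-AngII against CDH16KO-AngII (SE 0.19, 95% interval 0.30 to 1.15). The adjusted p-values were 0.215 and 0.282 in edgeR, which missed the threshold, and 0.0253 and 0.0457 in DESeq2, which passed it. Over all settings the adjusted p for CDH16KO-AngII against AngII ran from 0.0253 to 0.641, and for GRPR-AngII against CDH16KO-AngII from 0.0457 to 0.972.

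The 11 uptake and transport genes as a list had a median of −0.070 for CDH16KO-AngII against AngII, with 5 positive and 6 negative. Scarb1, the HDL receptor, gave −0.41 and Npc2, which hands cholesterol out of lysosomes, −0.39 there, with adjusted p-values of 0.613 and 0.667 in edgeR. The list's median was −0.022 for GRPR-AngII against AngII, where Lrp1, a large endocytic receptor, gave 0.65 (adjusted p = 0.732 in edgeR) and Scarb1 −0.27 (adjusted p = 0.783). It was 0.14 for GRPR-AngII against CDH16KO-AngII, where Lrp1 gave 0.45 and Tmem97, a sterol-responsive membrane protein, 0.39 (adjusted p = 0.962 and 0.967 in edgeR).

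Of 12 sterol regulators, 11 were tested and none was called. Srebf2, which encodes SREBP2, averaged 85.0 ± 2.81 CPM in the CDH16KO-AngII group, 80.9 ± 6.41 CPM in the GRPR-AngII group and 93.3 ± 9.04 CPM in the AngII group (SD, n = 3 each). Its log2 fold changes were −0.13, −0.21 and −0.071 for CDH16KO-AngII against AngII, GRPR-AngII against AngII and GRPR-AngII against CDH16KO-AngII, with adjusted p-values of 0.752, 0.747 and 0.998 in edgeR. Messenger level does not report the cutting of SREBP2, which these data do not measure. Rnf145, a ubiquitin ligase that acts on SCAP, averaged 42.6 ± 7.22 CPM in the CDH16KO-AngII group and 54.6 ± 5.95 CPM in the AngII group, with the 3 CDH16KO-AngII libraries below the AngII ones (log2 fold change −0.36, adjusted p = 0.611 in edgeR). Ranges did not meet for 12.2% of all tested genes in CDH16KO-AngII against AngII. Between GRPR-AngII and CDH16KO-AngII, Rnf145 gave 0.46 (adjusted p = 0.635 in edgeR). Erlin2, an endoplasmic reticulum membrane protein, gave −0.32 for CDH16KO-AngII against AngII (adjusted p = 0.624 in edgeR). For GRPR-AngII against AngII, Rnf139, a ubiquitin ligase of the same membrane, gave −0.28 and Insig2, the paralog of Insig1, −0.30 (adjusted p = 0.732 and 0.783 in edgeR). Srebf1, which encodes SREBP1, gave −0.34 and Rnf139 −0.21 for GRPR-AngII against CDH16KO-AngII (adjusted p = 0.938 and 0.930 in edgeR).

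The genes whose pattern over the 9 libraries was most like the mean z-score of the 8 members, leaving out predicted genes, were Lrig1 (r = 0.96), Thap6 (0.94), Nf2 (0.91), Jam3 (0.89), Oxct1 (0.88), Ccnh (0.88), Hnrnpa3 (0.88) and Pias2 (0.87). The measure was Pearson's r of log2(CPM + 1). Over all 12507 tested genes the median r was 0.015 and the 99th percentile 0.75. Of the other sterol enzymes, Msmo1, an oxidase of the steps after Cyp51, came nearest with r = 0.83. The members themselves differed in how far they followed their own mean, from r = 0.90 for Insig1 to −0.043 for Hmgcs1, each member being part of that mean.

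Hmgcs1 lies at chr13:119690379-119708260 on the plus strand (GRCm38), 36020 bases from Ccl28, which encodes a mucosal chemokine and was named after its values were seen. Ccl28 had 5.19, 28.5 and 16.8 CPM in the CDH16KO-AngII group, 3.56, 2.0 and 2.85 CPM in the GRPR-AngII group and 2.56, 6.60 and 3.48 CPM in AngII libraries. CDH16KO-AngII libraries 2 and 3 were the highest, as they were for Hmgcs1, and library 1 fell inside the AngII range. The log2 fold change of Ccl28 was 1.99 for CDH16KO-AngII against AngII (95% interval 0.78 to 3.21, adjusted p = 0.283 in edgeR) and −2.59 for GRPR-AngII against CDH16KO-AngII (95% interval −3.83 to −1.34, adjusted p = 0.157). For CDH16KO-AngII against AngII, Zfp131, the next tested gene on the other side, gave −0.0024, and Paip1 gave 0.077. Nearer than Paip1, Tmem267 gave −0.47, Gm9752 0.56 and 4833420G17Rik 0.33 there (adjusted p = 0.680, 0.617 and 0.669 in edgeR). None of the 10 tested genes within 1e+06 bases of Hmgcs1 was called. One of those 10 entries, the second gene model of Nnt, took 34.1%, 44.0% and 0% of Nnt counts in CDH16KO-AngII, 0%, 19.8% and 0% in GRPR-AngII and 93.5%, 95.8% and 0% in AngII libraries. The libraries of a group thus differed in how Nnt counts split between its models. Its part in the Hmgcs1 values was not tested.

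**Figure D5:**
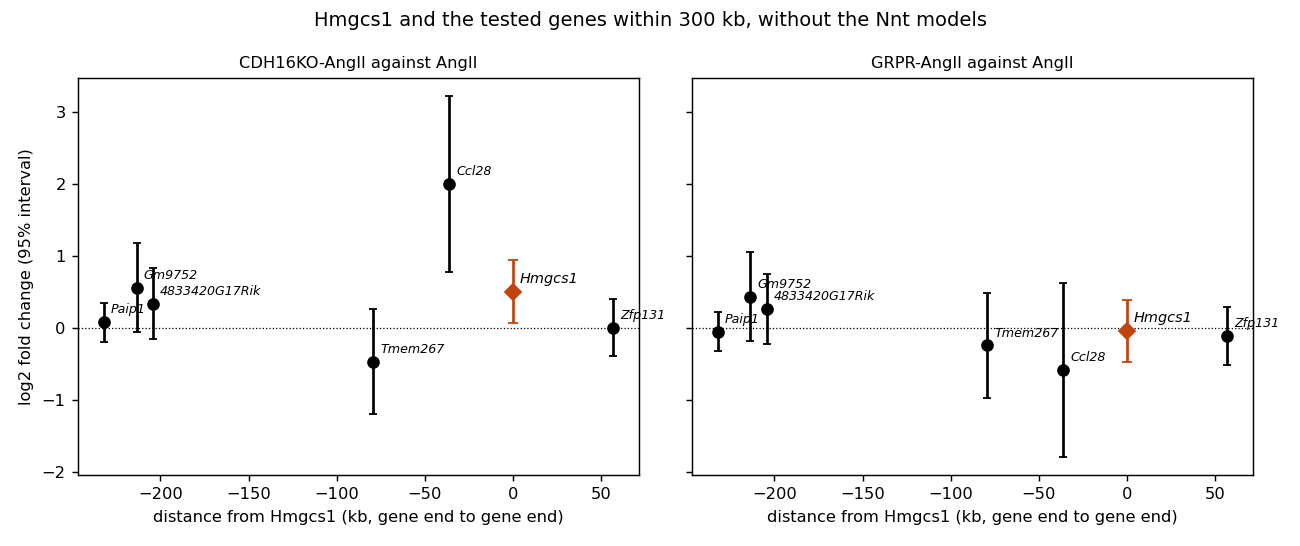
Log2 fold changes with 95% intervals of Hmgcs1 (diamond) and of tested genes near it, without the Nnt models, against the distance in kb between gene ends, for CDH16KO-AngII and for GRPR-AngII, each against AngII. In CDH16KO-AngII, Ccl28 stands at 1.99 and Hmgcs1 at 0.50, while Paip1 (0.077) and Zfp131 (−0.0024) lie near 0. Gm9752 stands at 0.56, 4833420G17Rik at 0.33 and Tmem267 at −0.47.

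Some counts could be shared with other genes. Fdft1 overlaps Ctsb, an abundant cathepsin gene on the other strand, over 774 bases, and 20.9% of its longest transcript matches Ctsb. A further gene, Gm6781, matches 33.7% of it. Idi1 matches Gm13502 over 22.6% and Gm35570 over 22.5% of its longest transcript. Antisense genes overlap Hmgcs1 (Gm48342, 0 to 9 counts in a library) and Lss (4930483K19Rik). Gm48574 overlaps Idi1 on the other strand over 323 bases, and 10.7% of the longest Idi1 transcript matches it. No source used here says whether counting used the strand, or how reads that match several genes were counted. The values of Fdft1 and Idi1 are uncertain to that extent.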

How the data were processed

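The authors deposited a table of read counts and FPKM per gene for 9 kidney libraries, made on build GRCm38 (mm10) per the submitters' processing notes. No source used here names the aligner, the counter or its strand setting. The deposited FPKM, fragments scaled for transcript length and depth, were used for the filter and for comparing levels between genes. Columns spelled CHD16KO were matched to the CDH16KO-AngII labels. Counts of genes with at least 1 FPKM in at least 3 libraries (12507 of 32593) were fitted over all 9 libraries with edgeR 4.0.16 (R 4.3.3), TMM scaling and quasi-likelihood tests, and p-values were adjusted by Benjamini-Hochberg over all genes tested, with a threshold of 0.05. Values given as CPM were scaled by TMM. Alternatives were other scalings and filters, DESeq2 1.42.0, limma 3.58.1 on log2(FPKM + 1) or log2(FPKM + 0.1), a replicate block, and leaving out libraries. The members and gene lists were chosen with earlier results of these data known. The text names all 8 members, and of 6 related lists Srebf2 and the up to 3 genes of smallest p in each comparison, a few of which are not reported here; the 8 genes most like the members by r were also named. Libraries of a group differed by far more than counting noise (chi-square of 74.2 to 366 per gene). Motifs were searched in RefSeq promoters, and shared sequence was found with BLAST 2.17.0 in GENCODE transcripts.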

Additional observations from a re-analysis of the deposited data

How the results depend on the processing

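No member of the 8 passed the threshold in any setting run. Of the 24 member fold changes, 19 changed sign in at least 1 setting, Hmgcs1 among them only for GRPR-AngII against AngII. The counts of genes called moved more. In CDH16KO-AngII against AngII, edgeR called 21 genes and DESeq2 210; leaving out 1 library gave 0 to 42, and leaving out the 3 libraries numbered 3, chosen after seeing the data, gave 2. In GRPR-AngII against AngII, edgeR called 0, DESeq2 54, leaving out 1 library 0 to 2 and leaving out the libraries numbered 3 gave 2. In GRPR-AngII against CDH16KO-AngII, edgeR called 18, edgeR without the filter 41, DESeq2 175 and the fit of the 2 groups alone 9; leaving out 1 library gave 0 to 50 and leaving out the libraries numbered 3 gave 0. Deviations from the group means correlated between −0.126 and 0.0911 for the libraries numbered 1, 0.138 and 0.319 for those numbered 2, and 0.255 and 0.297 for those numbered 3, and 5 of 9 libraries correlated best with their own number in both other groups. The numbers were not used as pairs, since the labels tie them to nothing and the correlations for number 1 stayed under 0.1; those for numbers 2 and 3 are a hint from the data, not the design. The fit with a replicate block called 26, 0 and 13 genes in the 3 comparisons and 0 members.

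Apart from leaving out single libraries, the reversed log2 fold changes ran from −0.13 to 0.081. For CDH16KO-AngII against AngII, Idi1 was −0.0044 with upper quartile scaling, −0.10 and −0.13 with limma at pseudocounts of 1 and 0.1, −0.068 with the replicate block and −0.076 without the libraries numbered 3. The last setting also gave −0.075 for Lss, 0.081 for Cyp51 and −0.086 for Dhcr7. For GRPR-AngII against AngII, limma at the 2 pseudocounts gave −0.019 and −0.025 for Lss and −0.015 and −0.016 for Cyp51, and leaving out the libraries numbered 3 gave −0.10 for Lss. For GRPR-AngII against CDH16KO-AngII, Lss was 0.0031 with RLE size factors, 0.024 without the filter, 0.0083 at 0.1 FPKM, 0.0031 with DESeq2, 0.0010 with the replicate block and 0.010 without mitochondria-coded genes; Fdft1 was 0.0090 without the filter and Cyp51 −0.077 without the libraries numbered 3.

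Leaving out 1 library at a time gave these ranges where the sign turned. Comparing CDH16KO-AngII against AngII they were −0.48 to 0.32 for Idi1, −0.21 to 0.025 for Fdft1, −0.47 to 0.011 for Sqle, −0.13 to 0.17 for Lss, −0.39 to 0.070 for Cyp51 and −0.047 to 0.25 for Dhcr7. Comparing GRPR-AngII against AngII they were −0.16 to 0.076 for Hmgcs1, −0.036 to 0.37 for Idi1, −0.27 to 0.016 for Fdft1, −0.0033 to 0.30 for Sqle, −0.14 to 0.17 for Lss, −0.021 to 0.20 for Cyp51 and −0.50 to 0.12 for Insig1. Comparing GRPR-AngII against CDH16KO-AngII they were −0.15 to 0.65 for Idi1, −0.20 to 0.094 for Fdft1, −0.072 to 0.11 for Lss, −0.0031 to 0.46 for Cyp51, −0.059 to 0.17 for Dhcr7 and −0.059 to 0.43 for Insig1. The causes were not tested. With 3 libraries a group, the spread between libraries rather than counting error limits these comparisons.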

Other observations

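Genes of fatty acid synthesis, which SREBP1 controls, had no call in edgeR in any comparison, with 12 of 14 tested. Thrsp, a lipogenic regulator, averaged 4.77 ± 0.884 CPM in the GRPR-AngII group, 2.59 ± 0.600 CPM in the CDH16KO-AngII group and 2.67 ± 0.881 CPM in the AngII group (SD, n = 3 each). Its 3 GRPR-AngII libraries lay above all others, with log2 fold changes of 0.84 against AngII and 0.88 against CDH16KO-AngII (adjusted p = 0.732 and 0.575 in edgeR). Scd1, the fatty acid desaturase, averaged 60.7 ± 12.6 CPM in the GRPR-AngII group and 33.8 ± 6.20 CPM in the AngII group, again without overlap (log2 fold change 0.85, adjusted p = 0.732 in edgeR). Ranges did not meet for 14.0% of all tested genes in GRPR-AngII against AngII and for 9.96% in GRPR-AngII against CDH16KO-AngII. How many genes lay above both other groups was not counted. Scd2, the paralog of Scd1, gave −0.46 for GRPR-AngII against CDH16KO-AngII (adjusted p = 0.867 in edgeR). For CDH16KO-AngII against AngII, 10 of 12 were negative, with a median of −0.18. So were 6021 of the 12507 tested genes and 10 of the 12 proximal tubule markers, whose part was not tested. Elovl5 and Elovl6, fatty acid elongases, gave −0.47 and −0.48 (adjusted p = 0.588 and 0.613 in edgeR). Me1, a cytosolic source of NADPH, gave −0.64 (adjusted p = 0.623 in edgeR).

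Genes of sterol efflux and storage had 7 of 10 tested and no call. Nr1h3, which encodes the oxysterol receptor LXR alpha, averaged 47.3 ± 2.93 CPM in the GRPR-AngII group, 40.6 ± 3.90 CPM in the CDH16KO-AngII group and 38.4 ± 1.30 CPM in the AngII group (SD, n = 3 each). Every GRPR-AngII library lay above every other library. Ranges did not meet for 14.0% of all tested genes in GRPR-AngII against AngII and for 9.96% in GRPR-AngII against CDH16KO-AngII. The log2 fold changes of Nr1h3 were 0.30 against AngII and 0.22 against CDH16KO-AngII (adjusted p = 0.732 and 0.888 in edgeR). Mylip, a ubiquitin ligase and LXR target, gave −0.57 against AngII and −0.54 against CDH16KO-AngII, and Abca1, an efflux pump and LXR target, gave −0.39 against AngII (adjusted p = 0.732, 0.842 and 0.749 in edgeR). Soat1, Apoe and Abca1 gave −0.31, −0.19 and −0.22 for CDH16KO-AngII against AngII, and Lcat gave −0.84 for GRPR-AngII against CDH16KO-AngII (adjusted p from 0.653 to 0.953 in edgeR).

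Of the 10 isoprenoid branch genes, 8 were negative in CDH16KO-AngII against AngII and 8 in GRPR-AngII against AngII. The medians were −0.13 and −0.079, with no call, and the AngII libraries are shared. Among all 12507 tested genes, 6021 and 6383 were negative in these comparisons. Among the 12 proximal tubule markers, 10 and 6 were negative, and their part was not tested. Ggps1, which makes the geranylgeranyl donor, averaged 16.8 ± 0.780 CPM in the CDH16KO-AngII group, 16.7 ± 0.723 CPM in the GRPR-AngII group and 19.6 ± 2.24 CPM in the AngII group (SD, n = 3 each), with adjusted p-values of 0.658 and 0.748 in edgeR. Pdss2 and Srd5a3 gave −0.38 and −0.28 for CDH16KO-AngII against AngII, and Fntb and Nus1 gave −0.33 and −0.33 for GRPR-AngII against AngII. Pggt1b, Dolk and Pdss2 gave −0.22, 0.21 and 0.31 for GRPR-AngII against CDH16KO-AngII.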
